A study of Nothobranchius furzeri with 68 samples.

Results

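The proteasome genes of the African turquoise killifish (Nothobranchius furzeri) were followed across feeding, genotype, age, sex and tissue. Members were all genes of both count tables whose symbol begins with psm, a letter from a to g and a digit. This gave 42 genes, of 25065 in the liver table and 25099 in the muscle table. All 42 passed the filter on low counts in both tissues, beside 17406 genes tested in liver and 16380 in muscle.

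The proteasome is the large protease that degrades proteins tagged with ubiquitin. Its 20S core is a barrel of outer alpha rings and inner beta rings, and the beta rings hold the cutting sites. The 19S cap binds ubiquitin chains, unfolds the substrate with a ring of ATPases and feeds it into the core, while other caps and interferon-inducible beta subunits form variants of the particle, among them the immunoproteasome that makes peptides for antigen presentation.

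By role, the members were 7 alpha ring subunits (psma1 to psma6 and psma8), 6 constitutive beta subunits (psmb1 to psmb5 and psmb7) and the inducible beta subunit psmb8. The 19S cap was represented by its 6 ATPases (psmc1 to psmc6) and 9 non-ATPase subunits. There were 4 activator genes (psme1 to psme4), the inhibitor psmf1 and 7 assembly chaperones (psmg1 to psmg4, psmd5, psmd9 and psmd10). The last gene, psmc3ip, matched by name but encodes a meiotic recombination factor that interacts with psmc3, and is no subunit. The 28 constitutive alpha, beta and 19S genes are called the core genes below. A further 7 genes carried an LOC identifier in the tables and a psm name in RefSeq (psmb6, psmb9a, psmb11a, psmb12, psmb13a, psma6l and psmd11b). They were not members. Of these genes 6 passed the filter, and values of some are given beside some of the results.

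PolyA RNA was sequenced from 41 livers and 27 muscles of 41 fish. Young fish were aged 6.5 weeks and old fish 15 weeks. They were male or female and either wild type (WT) or APRT heterozygous (Het). APRT makes AMP from adenine, and the labels do not describe the allele. Before sampling they either had food ad libitum or were fasted for 24 h. Only male livers came from fed fish, and every muscle came from a fasted fish that also gave its liver. The 12 liver and 8 muscle groups held 3 or 4 fish, and each library is named here by the number of its fish in the labels.

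Liver libraries held 19949104 to 31600126 counts and muscle libraries 24144462 to 31331150. The members took 0.0348% to 0.172% of the counts of a liver library and 0.0412% to 0.231% of those of a muscle library. In liver 11 listed hepatocyte markers summed to 36490 to 171800 CPM (counts scaled to a common library size with TMM factors) and 9 skeletal muscle markers to 1.93 to 256 CPM, and in muscle the sums were 2.50 to 2713 and 120400 to 319800 CPM. The 3 exocrine pancreas markers summed to 47.5 to 3096 CPM in liver (median 797) and 1.52 to 60.8 CPM in muscle. Their median log2 fold change was 1.44 for fasting in old WT males and -2.24 for age in fed WT males. None of the 3 was called in either comparison, and their part in the liver results was not tested. No marker was at 0 in all libraries of a tissue. The Het to WT ratio of aprt, the targeted gene, was 0.432 to 0.755, below 1 in 10 of 10 strata of tissue, age, sex and feeding. Some fish stood apart from their group over the core genes. The fasted liver of old WT male 18 had a mean core level of 4.62 log2 CPM, where the other fasted fish of its group (19 and 20) had 3.54 and 3.42, and fed old WT males 4.85 to 4.96. Young Het female 37 stood at 4.62 in liver beside 3.80 to 3.90 in its group. In muscle, fish 18 had the highest core level of all 27 libraries (5.42), and young Het male 38 had 4.41 where its group had 3.77 to 3.81.

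Of the 7 alpha ring genes of the 20S core, all were called lower after fasting in livers of old WT and old Het males. In young fish 6 were called lower in Het and 2 in WT males. Beta genes were called lower in 3 of these 4 groups. 19S genes were called lower mainly in old WT males (11 of 15). There were 3 of 15 in old Het, 2 in young Het and none in young WT males. Calls were made where edgeR's quasi-likelihood test gave an adjusted p, over all genes, under 0.05. In old WT males 27 of 42 members were lower after fasting, where 15.6% of all genes were, and 1 was higher, where 13.3% were. In old Het males 20 were lower (16.3% of all genes) and 1 was higher (15.4%). In young Het males 13 were lower (7.12% of all genes) and none was higher (6.39%). In young WT males 2 were lower (4.14%) and none was higher (6.51%). The 2 of 42 in young WT males were near the share of all genes. The median log2 fold change of the members was -0.92 in old WT, -0.64 in old Het, -0.50 in young Het and -0.39 in young WT males, while the median of all genes lay between -0.02 and 0.08. Across the 4 responses 31 members had a fold change below 0 each time, and psme4 was the only one above 0 each time. The members share libraries, so these signs are not independent of each other. The mean level of the core genes was 4.12, 4.45, 4.92 and 4.58 log2 CPM in fed young WT, young Het, old WT and old Het males, and 3.67, 3.81, 3.86 and 3.85 log2 CPM in the fasted ones. RNA was taken from whole tissue, so fewer cells of a type and less RNA per cell cannot be told apart. The count of lower members in old WT males ran from 9 (without fish 19) to 33 (without fish 18) when 1 library was left out, and was 2, with none higher, when only the groups compared were fitted. Scaled by total counts, 11 members were lower in old Het, 4 in young Het and none in young WT males, while a fit of only the groups compared called 10 lower in young WT males.

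**Figure D1:**
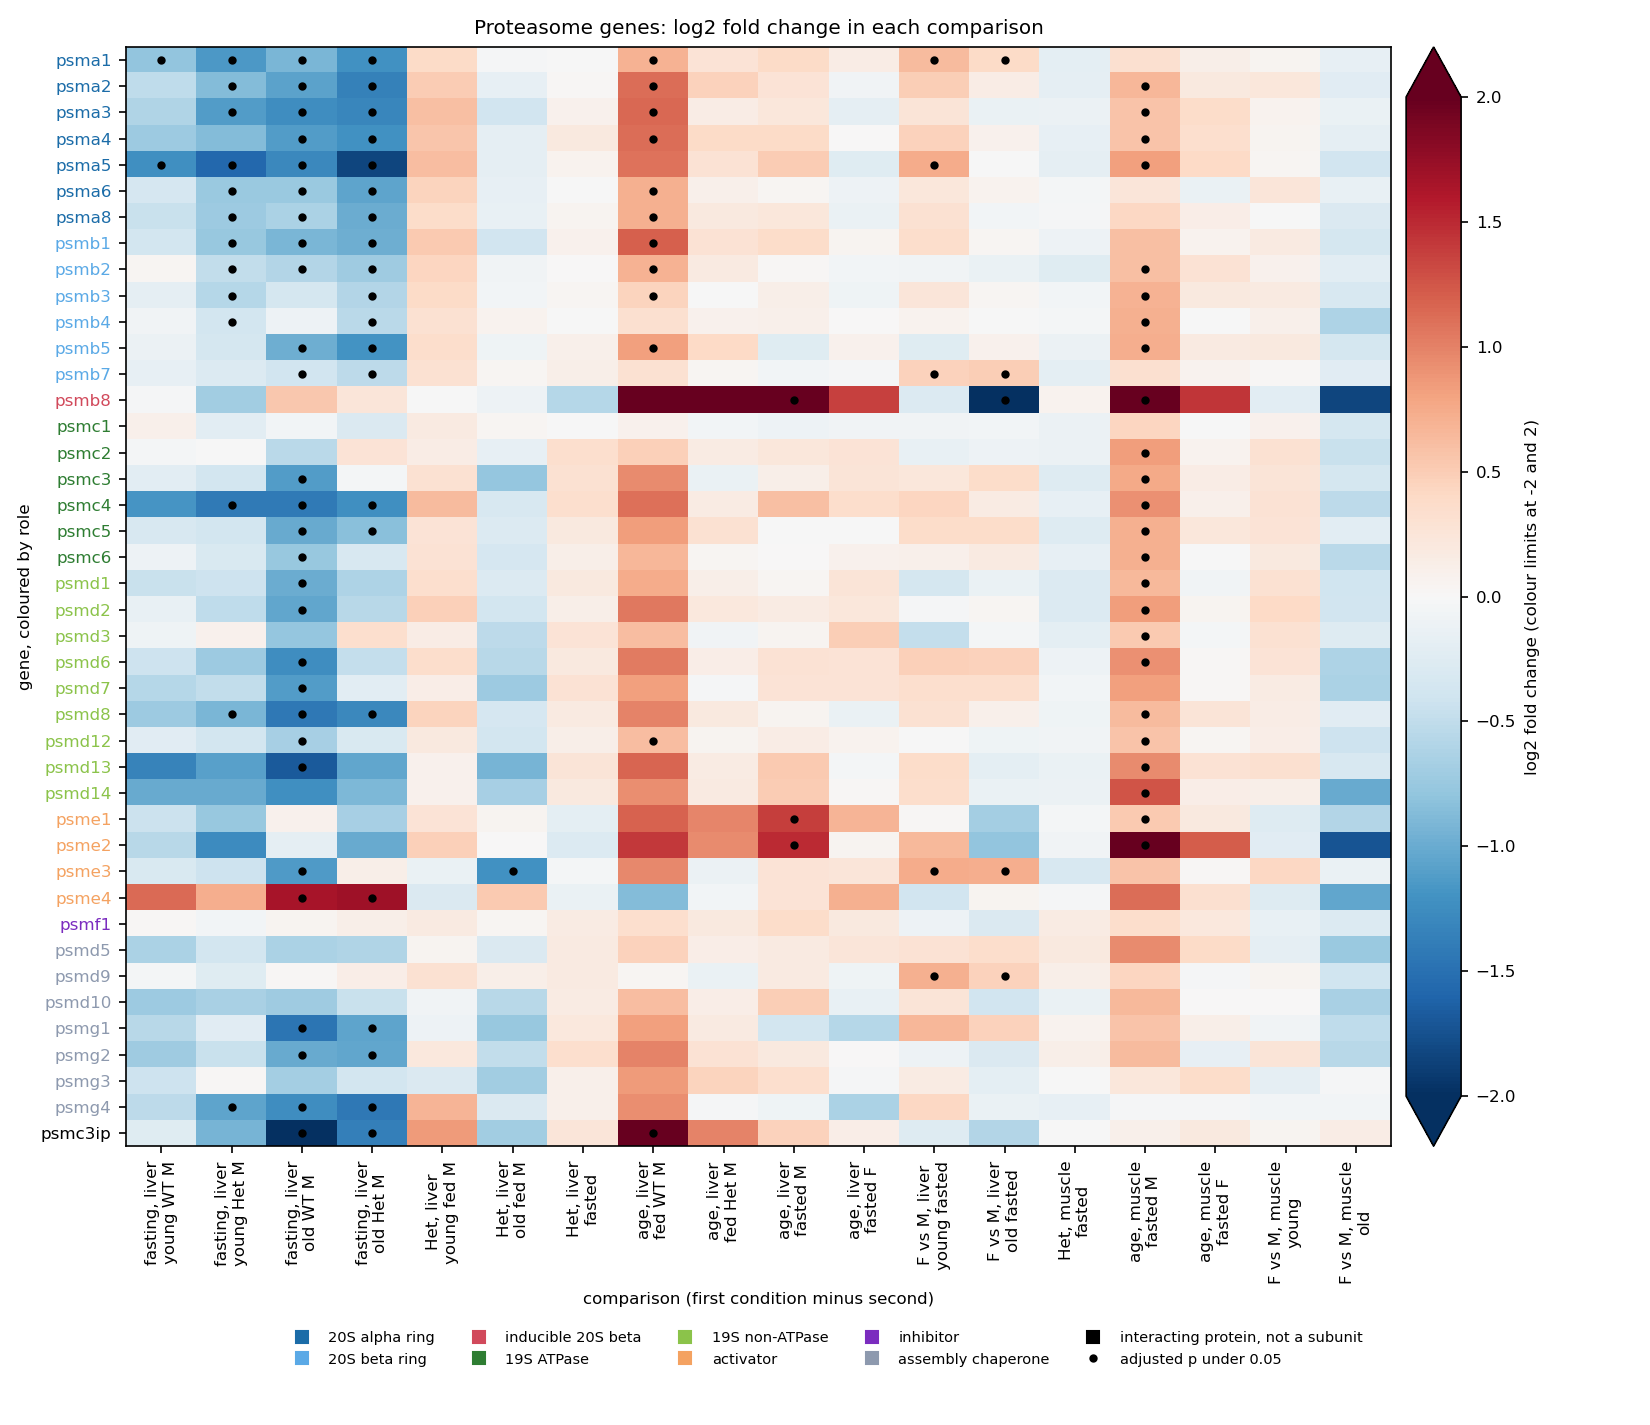
Log2 fold change of each of the 42 genes (rows, coloured by role) in 18 comparisons within a tissue (columns), with red for higher and blue for lower in the first condition and a black dot for an adjusted p under 0.05. The 7 alpha ring genes were blue in all 4 fasting columns and called in both columns of old males, and psme4 was red there. Muscle of old males was red for 41 of 42 genes, where the median of all genes was 0.03.

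The alpha ring, which gates entry to the core, was the most often called role. All 7 genes were lower in fasted old WT and in fasted old Het males, 6 of 7 in young Het and 2 of 7 in young WT males. psma5 stood at 11.9, 11.4 and 11.3 CPM in fed young WT males and at 6.39, 4.22 and 4.22 CPM in fasted ones. It read 20.2, 15.2, 20.0 and 15.1 CPM in fed young Het males and 6.04, 5.81, 6.24 and 5.74 CPM in fasted ones. In both genotypes every fasted young fish lay below every fed one. The log2 fold changes were -1.22 ± 0.399 in young WT (SE, adjusted p 0.0441) and -1.57 ± 0.346 in young Het males (adjusted p 0.00304).

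In old fish psma5 had 26.7, 24.4 and 22.3 CPM in fed WT and 20.0, 5.99 and 3.78 CPM in fasted WT males, the highest fasted value being that of fish 18. Old Het males had 17.6, 13.6, 24.3 and 30.5 CPM when fed and 3.38, 9.01 and 5.67 CPM when fasted, again without overlap. The log2 fold changes were -1.29 ± 0.393 (adjusted p 0.0129) and -1.84 ± 0.386 (adjusted p 0.000546). Leaving out 1 library ended the call in 2 of 6 cases in old WT males and in 5 of 6 in young WT males, and fitting only the groups compared ended it in old WT males.

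psma1 was the other gene called in all 4 responses, with log2 fold changes of -0.79 ± 0.217 in young WT and -1.14 ± 0.189 in young Het males. Fed young WT males had 13.2, 13.1 and 14.0 CPM of psma1, and fasted ones 7.93, 7.58 and 7.73 CPM. Fed young Het males had 18.7, 16.7, 18.8 and 16.2 CPM and fasted ones 8.08, 8.42, 8.14 and 7.25 CPM. The groups did not overlap, and the adjusted p was 0.0152 in WT and 0.000189 in Het. psma3, another alpha subunit, had a log2 fold change of -1.12 ± 0.217 in young Het males (adjusted p 0.00101). psma6 had 26.8, 23.3, 30.0 and 34.4 CPM in fed and 12.3, 15.6 and 13.3 CPM in fasted old Het males. These did not overlap (-1.06 ± 0.173, adjusted p 4.02e-05).

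Among the beta genes, 6 of 6 were lower in fasted old Het males, 4 of 6 in old WT, 4 of 6 in young Het and none in young WT males. psmb5, the constitutive subunit with the chymotrypsin-like site, had 9.20, 10.8 and 10.9 CPM in fed and 5.67, 5.03 and 4.99 CPM in fasted old WT males. Old Het males had 10.03, 8.22, 9.17 and 11.3 CPM when fed and 3.76, 4.21 and 4.72 CPM when fasted. Neither pair of groups overlapped. The log2 fold changes were -0.97 ± 0.154 (adjusted p 4.08e-05) and -1.195 ± 0.147 (adjusted p 1.24e-06), the smallest adjusted p of the members in each response, and both calls were kept when any library was left out. In young Het males psmb1 had the largest change of the beta genes (-0.76 ± 0.251, adjusted p 0.0394), a call that ended in 7 of 8 cases when 1 library was left out.

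The inducible subunit psmb8 was called in none of the 4 responses, with log2 fold changes of -0.02, -0.70, 0.54 and 0.24 in young WT, young Het, old WT and old Het males.

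Of the 19S ATPases, 4 of 6 were lower in old WT, 2 in old Het, 1 in young Het and none in young WT males. psmc4 had the largest called change each time, at -1.42 ± 0.442 in old WT (adjusted p 0.0152), -1.22 ± 0.421 in old Het (adjusted p 0.0251) and -1.41 ± 0.386 in young Het males (adjusted p 0.0137). Fish 18 again lay near the fed range for this gene, at 21.8 CPM beside 4.46 and 4.25 CPM in the other fasted old WT males and 26.8 to 28.2 CPM in the fed ones. Of the 9 non-ATPase subunits, 7 were lower in old WT males and 1 each in old Het and young Het males, psmd8 in both. psmd13, a scaffold subunit of the lid, had 28.9, 28.9 and 27.2 CPM in fed and 18.4, 4.54 and 3.51 CPM in fasted old WT males (-1.68 ± 0.454, adjusted p 0.00577). psmd8, another lid subunit, changed by -1.29 ± 0.314 in old Het (adjusted p 0.00214) and -0.92 ± 0.283 in young Het males (adjusted p 0.0275). RefSeq-named psmd11b had mean levels of 31.19 (fed) and 11.65 CPM (fasted) in young WT and 16.33 and 11.64 CPM in young Het males. In old males they were 45.57 and 15.36 CPM in WT and 17.35 and 15.18 CPM in Het. For psmb6 the means were 27.59 and 27.58 CPM in young WT and 32.45 and 26.74 CPM in young Het males. Old males had 33.1 and 27.36 CPM in WT and 33.96 and 23.63 CPM in Het.

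**Figure D2:**
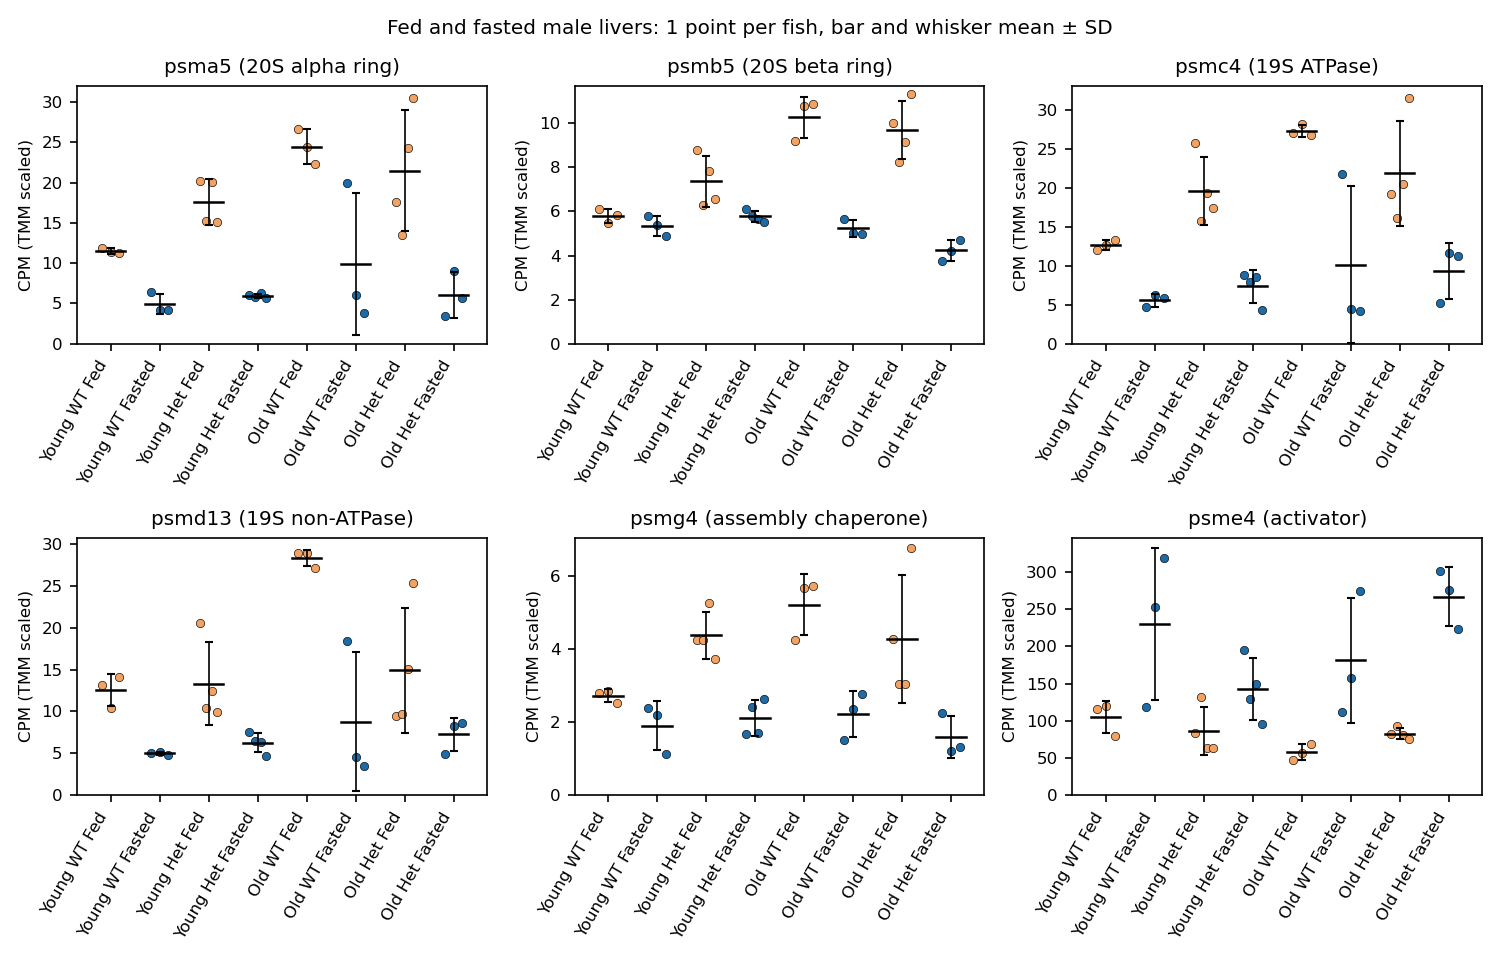
CPM of 6 genes in fed (orange) and fasted (blue) male livers, 1 point per fish, with the mean and SD of each group. Fasted fish lay below fed fish for psma5 in all 4 pairs of groups, psme4 ran the other way in old fish, and 1 fasted old WT fish lay at 20.0 CPM of psma5 and 21.8 CPM of psmc4.

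The chaperones that build the particle included 3 of 7 lower genes in each of the old responses and 1 in young Het males. psmg1, a partner in the dimer that assembles the alpha ring, fell in old WT males (-1.46 ± 0.434, adjusted p 0.0113), and psmg4 fell in old Het (-1.42 ± 0.362, adjusted p 0.00304) and young Het males (-1.06 ± 0.325, adjusted p 0.027). psmc3ip, no subunit, had 2.60, 3.83 and 4.79 CPM in fed and 1.03, 0.496 and 0.546 CPM in fasted old WT males (-2.41 ± 0.442, adjusted p 0.000189). In old Het males its change was -1.37 ± 0.41 (adjusted p 0.0105), or -0.66 without fed fish 14 (adjusted p 0.178). Inhibitor psmf1 was called in no fasting response. Of 13 leukocyte markers 1 was higher in fasted old WT males, and their summed level was 495 CPM in fish 18 beside 149 and 28.6 CPM in fish 19 and 20. Their part in the fasting result was not tested.

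Against this direction, psme4 rose in both old responses. It encodes PA200, a cap that opens the core without the 19S ATPases and has been linked in mammals to DNA repair and histone turnover. Fed old WT males had 47.7, 56.9 and 68.8 CPM and fasted ones 112, 157 and 275 CPM. Fed old Het males had 81.7, 93.0, 80.5 and 75.8 CPM and fasted ones 301, 276 and 223 CPM. The groups did not overlap in either genotype. The log2 fold changes were 1.65 ± 0.411 (adjusted p 0.00309) and 1.69 ± 0.375 (adjusted p 0.000923), and both calls were kept when any library was left out, although the one in old WT males was lost when only the groups compared were fitted. In young fish the changes of 1.13 in WT and 0.73 in Het males were not called. psme3, the nuclear PA28 gamma cap, fell in old WT males with a log2 fold change of -1.14.

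Whether age or genotype altered the fasting response was tested directly in 3 contrasts. None of the 42 members was called for old minus young in WT males (3 members at an unadjusted p under 0.05), for Het minus WT in young males (2) or for Het minus WT in old males (5), in a fit that called 0.0172%, 1.53% and 1.25% of all genes. DESeq2 called 1 member in the first contrast. Here and below, counts at an unadjusted p under 0.05 are of members alone. The percentages of all genes beside them are adjusted calls, an unlike threshold, so these counts cannot be read as many or few. Of the members, psme3 had the largest difference in old males (1.25 ± 0.49, Het minus WT, adjusted p 0.157). The difference in the number of called members between the responses is not shown to be a difference in response.

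A list of other genes of the pathway was read beside the members. The 37 symbols listed for assembly, shuttling, deubiquitination and control of the proteasome matched 24 genes that were tested, some of which share the symbol ubb. In fasted old WT males 11 of 24 were lower (15.6% of all genes) and 3 higher (13.3%), with a median of -0.32. The lower ones were the core maturation factor pomp (-0.56), the cap-bound deubiquitinases usp14 (-1.28) and uchl5 (-0.76), the protease ddi2 (-0.87), which activates nfe2l1, the unfoldase vcp (-0.99) and its cofactor nploc4 (-0.41), the shuttle rad23b (-0.59), ngly1 (-0.57), akirin1 (-0.59), uba1 (-0.54) and the ligase trim63b (-2.41). For trim63b the fed livers of fish 4, 5 and 6 held 190, 24 and 9 counts and the fasted ones 12, 12 and 6, with fish 4 standing apart. The genes called higher were fbxo32 (2.23), a ubiquitin ligase known from muscle atrophy, zfand5a (2.11), a proteasome-binding protein in mammals, and the stress-response factor nfe2l2 (0.73).

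The other fasting responses called fewer genes of the list. In old Het males 4 of 24 were lower, where 16.3% of all genes were, namely pomp (-0.90), rad23b (-0.87), akirin1 (-0.72) and uchl5 (-0.68), and ubqln4 (1.63) and zfand5a (1.08) were higher, where 15.4% of all genes were. In young WT males 4 were higher (6.51% of all genes), namely fbxo32 (3.81), zfand5a (1.45), nfe2l2 (0.85) and adrm1 (0.51), a ubiquitin receptor of the 19S cap, and none was lower (4.14%). In young Het males akirin2 (1.05), nfe2l2 (0.79) and adrm1 (0.45) were higher (6.39% of all genes) and pomp (-0.59) was lower (7.12%). The Het minus WT difference in response was called for fbxo32 in young males (-3.54, adjusted p 0.00545) and for ddi2 in old males (1.29, adjusted p 0.0436). fbxo32 was near the floor in fed young WT livers (0, 3 and 5 counts), beside 38, 44 and 49 counts in fasted ones. Its fasting change in young WT males and this difference share that fed group.

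Few members were called for genotype. In fed young males no member was called (5.8% of all genes were), although 8 had an unadjusted p under 0.05, the median was 0.31, and in 20 of 42 every Het fish lay above every WT fish, where 14.8% of all genes did. DESeq2 called 2 members higher and a fit of only the groups compared called 6. Of the pathway list fbxo32 (4.06) and ubb (1.21) were higher and akirin2 (-1.04) was lower in Het fish. fbxo32 had 20, 38, 55 and 45 counts in these Het livers and 0, 3 and 5 in the WT ones. The same WT livers enter its fasting change in young WT males. In fed old males the median was -0.28 beside -0.0015 for all genes, with 34 of 42 members below 0. The only member called there was psme3 (lower, as were 3.88% of all genes, while 3.45% were higher). It had 28.9, 31.4 and 26.0 CPM in WT and 10.03, 9.68, 10.3 and 19.7 CPM in Het males, without overlap (-1.21 ± 0.332, adjusted p 0.0234). Leaving out 1 library at a time ended this call in 4 of 7 cases, with adjusted p up to 0.132. No member was called in the fasted livers (0.132% of all genes) or in muscle (0.0794%), where 3 and 5 members had an unadjusted p under 0.05.

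Proteasome genes were higher with age in the fed WT liver. Between young and old fed WT males 12 of 42 members were higher in old fish (6.13% of all genes) and none was lower (3.3%), with a median of 0.83 beside 0.03 for all genes. The libraries did not overlap for 38 members (20.9% of all genes in that direction). psme4 went the other way and was not called, at 47.7 to 68.8 CPM in old and 80.0 to 120 CPM in young fish. The called genes were 6 of 7 alpha, 4 of 6 beta, psmd12 of the 19S lid and psmc3ip. psmb5 had 6.10, 5.46 and 5.84 CPM in young and 9.20, 10.8 and 10.9 CPM in old fish (0.82 ± 0.153, adjusted p 0.00106). psmc3ip had 0.658, 0.478 and 0.772 CPM in young and 2.60, 3.83 and 4.79 CPM in old fish (2.55 ± 0.447, adjusted p 0.000657). psma3 had the largest called change of the alpha ring (1.14 ± 0.249, adjusted p 0.00363), psmb1 that of the beta ring (1.201 ± 0.291, adjusted p 0.0081), and psmd12 changed by 0.61 ± 0.183 (adjusted p 0.0308). The count of higher members was 5 without fish 46, 7 with no filter on low counts, 19 with DESeq2 and 33 when only the groups compared were fitted. That last fit also called 1 member lower. Of the pathway list 4 of 24 genes were higher and none lower, namely trim63b (2.01), fbxo32 (2.02), a ubb gene (0.74) and rad23b (0.54). trim63b had 190, 24 and 9 counts in old fish 4, 5 and 6, and 12, 11 and 14 in the young fish, with fish 4 standing apart. fbxo32 was near the floor, with 24, 8 and 12 counts in old and 0, 3 and 5 in young fish.

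In fed Het males no member was called for age, and no gene of the 17406 was either, while 3 members had an unadjusted p under 0.05. The median was 0.16. The difference in the age effect between genotypes was called for no member (10 at an unadjusted p under 0.05, 0.276% of all genes called). The median was -0.61 beside -0.001 for all genes, and 41 of 42 values lay below 0. The members share libraries, so these signs are not independent of each other. For psma5 the young Het fed fish lay above the young WT fed fish, at 15.1 to 20.2 CPM beside 11.3 to 11.9 CPM. This held for 20 of 42 members, as given above beside the share of all genes. psmd13 overlapped, at 9.9 to 20.5 CPM in Het and 10.4 to 14.1 CPM in WT fish. The part of the young fed levels in the age results was not tested. The fed WT groups also serve in the fasting and genotype comparisons, so these results share libraries.

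In livers of fasted males 3 of 42 members were higher with age (8.9% of all genes), psmb8, psme1 and psme2, and none was lower (5.66%). Neither count exceeded the share of all genes. psmb8 replaces psmb5 in the immunoproteasome, and psme1 and psme2 form the interferon-inducible PA28 cap. psmb8 ran from 0.31 to 1.23 CPM with a median of 0.68 in the 7 young males. The old males were split: fish 18, 19 and 26 had 14.8, 8.81 and 17.7 CPM, and fish 20, 25 and 27 had 1.60, 0.669 and 0.858 CPM. The groups overlapped. The log2 fold change was 3.37 ± 0.722 (adjusted p 0.00295), or 1.84 without fish 26 (adjusted p 0.0889).

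The PA28 genes followed the same fish. psme1 had 22.5, 16.1 and 19.8 CPM in fish 18, 19 and 26, and 6.47, 3.83 and 4.26 CPM in fish 20, 25 and 27. It ran from 3.38 to 6.63 CPM in the young males (1.38 ± 0.402, adjusted p 0.0186). psme2 had 56.2, 20.9 and 39.9 CPM in the first 3 fish and 9.08, 4.43 and 4.47 CPM in the other 3 (1.49 ± 0.471, adjusted p 0.0297). Without fish 26 none of the 42 members was called, and the log2 fold changes were 0.78 for psme1 and 0.56 for psme2 (adjusted p 0.237 and 0.481).

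Of the genes with a psm name in RefSeq, psmb9a (4.71 ± 0.971, adjusted p 0.00227), the homologue of another inducible beta subunit of mammals, psmb13a (2.25 ± 0.583, adjusted p 0.00926), psmb12 (1.52 ± 0.488, adjusted p 0.0325) and psma6l (1.08 ± 0.322, adjusted p 0.0217) were higher in old males. All 4 were highest in fish 18, 19 and 26. psmb9a had 161, 45 and 117 counts in these fish, 5, 2 and 3 in fish 20, 25 and 27, and 0 to 4 in young males, near the floor. psmb12 had 320, 119 and 266 counts in the first 3 fish and 48, 14 and 40 in the other 3, beside 35 to 53 in young males. Their calls were not checked with 1 library left out. In the order of genes of the RefSeq assembly, psmb9a, psmb12 and psmb13a neighbour each other. Of 12 tested genes listed for antigen presentation, 4 were higher and none lower: b2m (1.37), the light chain of MHC class I, the peptide loading factor tapbp (1.57), the transcription factor irf1b (2.91) and the peptidase erap1b (0.64). irf1b had 2716, 1308 and 3274 counts in fish 18, 19 and 26, and 112, 54 and 45 counts in fish 20, 25 and 27. Young males had 77 to 263 counts. Of the pathway list nfe2l2 was lower (-0.65) and none higher.

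Leukocyte markers moved with these genes. Of 13 tested markers of 15 in the table, 10 were called higher in old fasted males and none lower, and no marker was at 0 in all libraries. Their summed level was 495, 149 and 367 CPM in fish 18, 19 and 26, 28.6, 48.5 and 52.2 CPM in fish 20, 25 and 27, and 19.0 to 46.7 CPM in young males. Their part in the result was not tested. In fed fish the highest psmb8 values, 13.5 CPM in old WT fish 4 and 18.2 CPM in old Het fish 13, also came with the highest marker sums, 304 and 257 CPM.

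**Figure D3:**
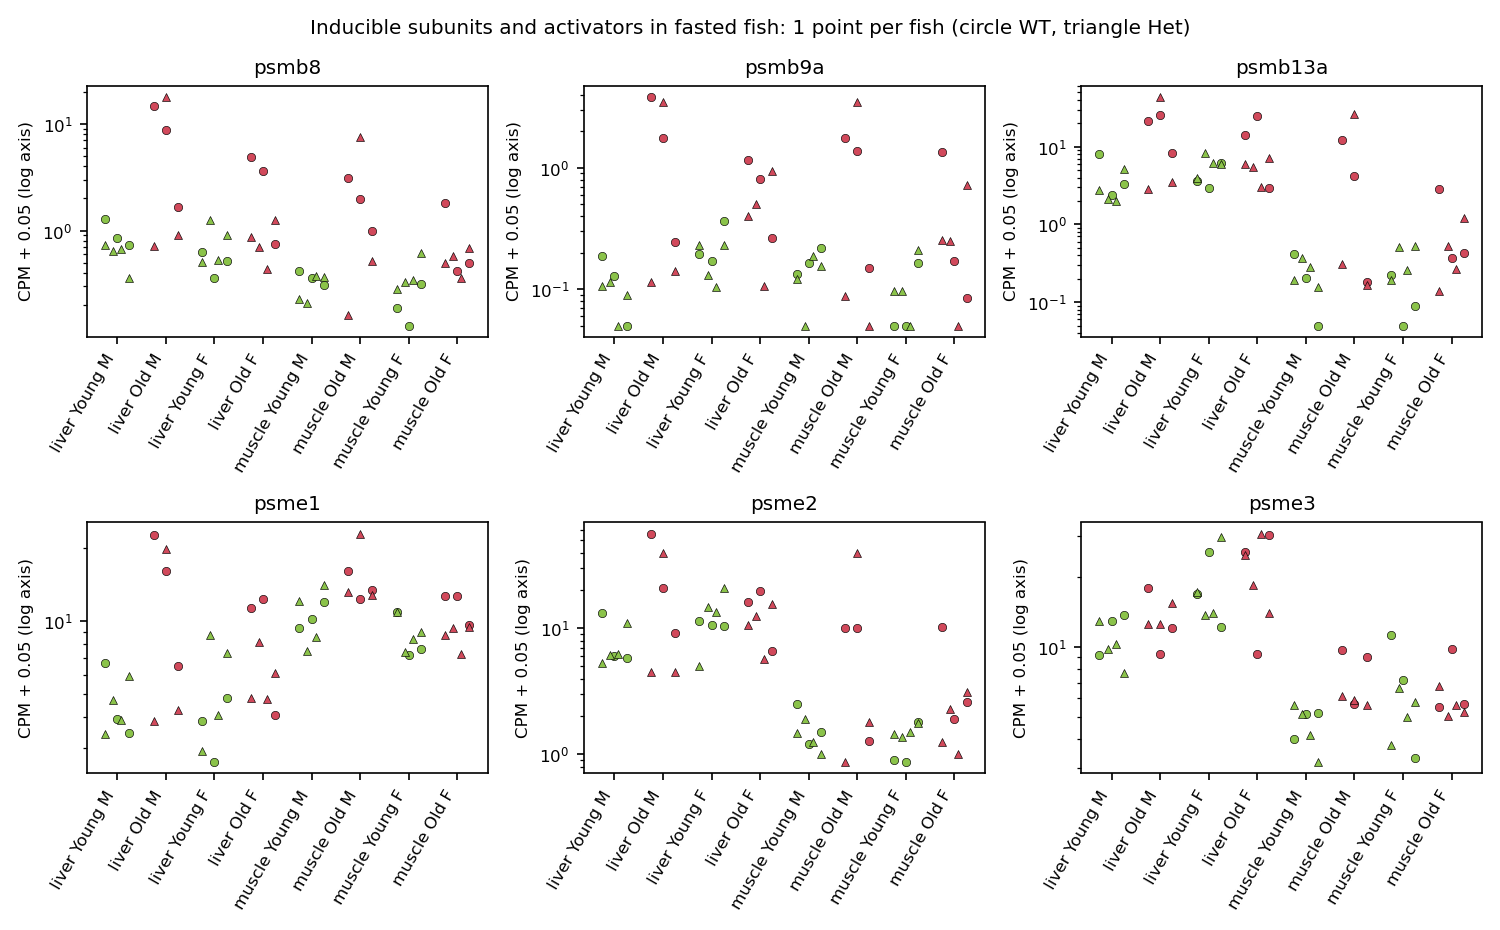
CPM plus 0.05 on a log axis for psmb8, RefSeq-named psmb9a and psmb13a, and the activators psme1 to psme3 in fasted fish, 1 point per fish (green young, red old, circle WT, triangle Het). psmb8 of old males spread from 0.669 to 17.7 CPM in liver and from 0.112 to 7.42 CPM in muscle, and 3 old males were high in both tissues.

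In fasted females no member was called for age in liver (5.95% of all genes were, 3 members at an unadjusted p under 0.05). psmb8 differed by 1.37 on the log2 scale, and ran from 0.39 to 4.86 CPM in old females. The leukocyte marker sum had a median of 35.6 CPM in young and 110 CPM in old females, with 1 of 13 markers called higher and 1 lower. Female 15 had the highest sum (142 CPM) and the highest psmb8 (4.86 CPM). Females 23, 21 and 17, with sums of 140, 124 and 110 CPM, had 0.39, 0.824 and 0.692 CPM of psmb8. The part of these markers in the result was not tested. Of the pathway list ubb (0.75) and nploc4 (0.43) were higher. The difference of the age effect between males and females was called for no member either (0.954% of all genes), with 3 members at an unadjusted p under 0.05. It was called for nfe2l2 of the pathway list (-0.92, adjusted p 0.0314).

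In muscle the age comparison called members of the 20S core and of the 19S cap. In old against young fasted males 24 of 42 members were higher (5.9% of all genes) and none was lower (4.24%), with a median of 0.64 beside 0.03 for all genes. Called were 5 of 6 ATPases, 8 of 9 non-ATPases, 4 of 7 alpha, 4 of 6 beta, psmb8, psme1 and psme2, and none of the 7 chaperones. psma5 ran from 6.30 to 7.98 CPM in young males, with a median of 7.10. Old males had 20.8, 12.2 and 9.80 CPM in WT and 8.09, 14.8 and 9.73 CPM in Het. Every old male lay above every young male, which held for 1 member and 0.549% of all genes. The log2 fold change was 0.82 ± 0.161 (adjusted p 0.00397).

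Fish 18 stood highest. Over the 28 core genes its median lay 1.60 above the mean of the young males on the log2 scale, and all 28 genes were higher. The other old males had medians of 0.60 (fish 19), 0.29 (fish 20), 0.00 (fish 25), 0.52 (fish 26) and 0.61 (fish 27), and young Het male 38 had 0.57. Without fish 18, 8 members were called in place of 24, and without fish 20, 34 were. Scaled by total counts 39 were called, as the median of all genes moved to 0.32, and 2 were called when only the groups compared were fitted. psmc4 had 44.4 CPM in fish 18, 12.3 to 19.1 CPM in the other old males and 9.17 to 20.9 CPM in the young ones (0.92 ± 0.222, adjusted p 0.0137, or 0.0599 without fish 18). psmd14, the deubiquitinase of the 19S lid, had the largest called change of the non-ATPases (1.26 ± 0.367, adjusted p 0.0318) and lost its call without any of 9 of the 13 libraries. psmb5 (0.73 ± 0.163, adjusted p 0.00912) kept it in all 13.

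**Figure D4:**
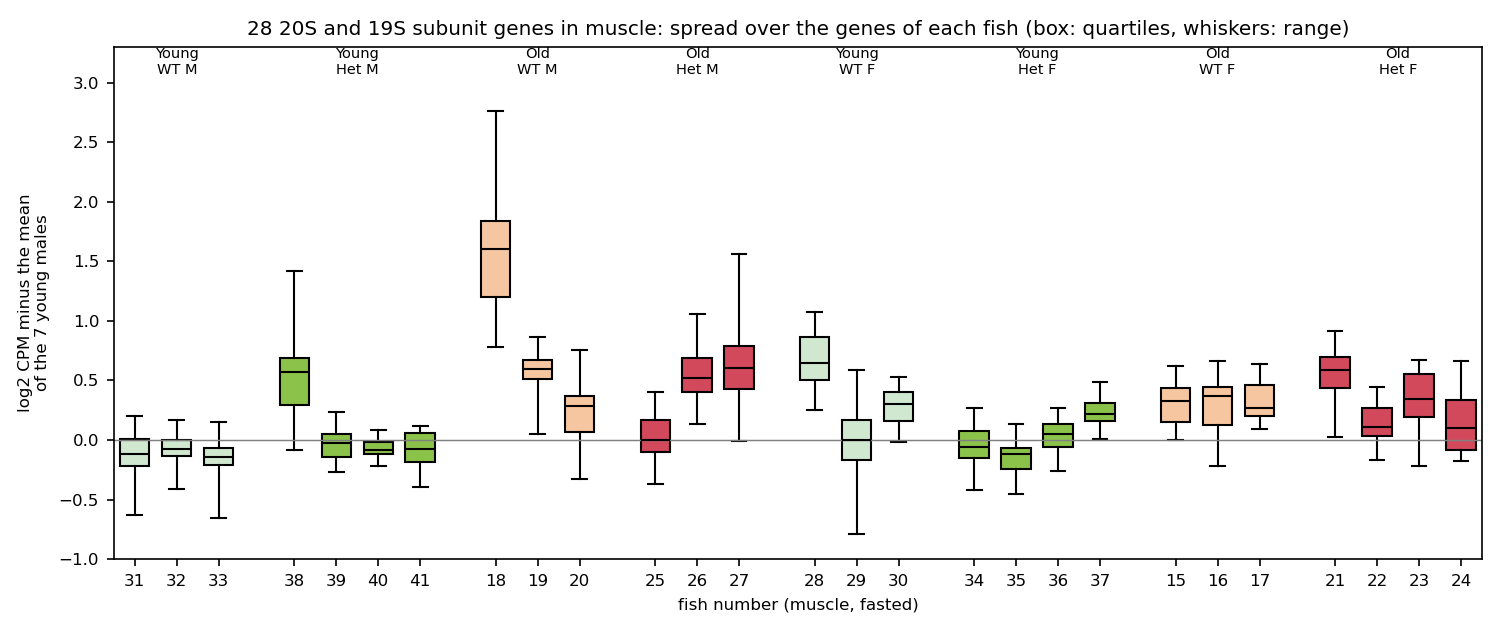
Log2 CPM of the 28 core genes in the muscle of each of 27 fasted fish, as the difference from the mean of the 7 young males. Boxes give quartiles and whiskers the range over genes, which share a library and are not replicates; the median was 1.60 in fish 18 and between 0.00 and 0.61 in the other old males.

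psmb8 in muscle ran from 0.159 to 0.37 CPM in young males. Old males had 3.06, 1.92, 0.933, 0.112, 7.42 and 0.471 CPM in fish 18, 19, 20, 25, 26 and 27, so that fish 18, 19 and 26 were again the highest. The log2 fold change was 3.06 ± 0.621 (adjusted p 0.00505), or 1.47 without fish 26 (adjusted p 0.0641). psme2 had 10, 9.96 and 39.8 CPM in those 3 fish and 0.82 to 1.77 CPM in the other old males, beside 0.959 to 2.46 CPM in young males (2.71 ± 0.646, adjusted p 0.0129). Without fish 26 its log2 fold change was 0.98 (adjusted p 0.206). RefSeq-named psmb13a (5.15), psmb9a (3.49), psmb12 (3.41), psma6l (2.84) and psmd11b (0.90) were also called. psmb13a had 413, 143 and 677 counts in fish 18, 19 and 26, and 4, 7 and 3 in fish 20, 25 and 27. Young males had 0 to 10 counts of it, 0 to 4 of psmb9a and 0 to 3 of psmb12, near the floor. psmb12 had 18, 13 and 52 counts in fish 18, 19 and 26, and 7 or fewer in every other muscle library. It passed the filter on low counts only through these old males, so its call here cannot count as support. The calls of the RefSeq-named genes were not checked with 1 library left out. psmb9a, psmb12 and psma6l were also highest in fish 18, 19 and 26. psmd11b had 70.5 CPM in fish 18, 16.7 to 31.4 CPM in the other old males and 12.4 to 29.9 CPM in young males.

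Leukocyte markers were higher here too, with 7 of 12 tested called and none lower. Their summed level was 90.9, 87.8 and 148 CPM in muscle of fish 18, 19 and 26, 22.2 to 26.6 CPM in the other old males and 16.8 to 32.8 CPM in young males. Their part in the result was not tested. The 3 old males with sums in the range of the young males had core medians of 0.29 (fish 20), 0.00 (fish 25) and 0.61 (fish 27).

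Of the 24 genes of the pathway list, 12 were higher (5.9% of all genes) and none lower (4.24%) in the same muscles of old males, with a median of 0.62. They included nfe2l1 (0.997), a transcription factor that drives proteasome genes when the protease is impaired in mammals, and ddi2 (1.55), the protease that activates it. ddi2 had 85.7 CPM in fish 18, 5.37 to 47.2 CPM in the other old males and 5.83 to 39.5 CPM in young males. nfe2l1 had 106 CPM in fish 18, 25.6 to 83.5 CPM in the other old males and 20.4 to 72.3 CPM in young males. Young male 38 was the highest young male for both. The list was not tested without fish 18. usp14 (1.19), adrm1 (0.76), uchl5 (0.59) and pomp (0.52), which act on or in the particle, were higher, as were txnl1 (0.62), rad23b (0.51), ubqln4 (0.55), zfand5a (1.54) and 2 ubiquitin genes with the symbol ubb (1.53 and 0.43). zfand5a had 871 CPM in fish 18 and 58.3 to 287 CPM in the other old males. Of 11 tested antigen presentation genes 5 were higher and none lower: b2m (3.77), nlrc5 (3.03), which activates MHC class I genes, tap2a (2.68), irf1b (2.38) and erap1b (0.91). b2m had 74.9, 41.2 and 171 CPM in fish 18, 19 and 26, and 5.87, 6.11 and 4.94 CPM in fish 20, 25 and 27. Young males had 2.17 to 6.53 CPM. nlrc5 and tap2a were also highest in fish 18, 19 and 26, and lay near the floor in young males (up to 0.329 and 0.616 CPM).

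In muscle of females no member was called for age (0.311% of all genes were, 4 members at an unadjusted p under 0.05), with a median of 0.13. The test of the difference between the sexes called no gene at all, and 17 members had an unadjusted p under 0.05. Between old females and old males 41 of 42 members had a fold change below 0, female minus male, with a median of -0.35 beside -0.03 for all genes. None was called (1.78% of all genes), and the smallest adjusted p was 0.0551. At an unadjusted p under 0.05 there were 22 members, with no share of all genes at that threshold beside them. Without male 20, 16 members were called lower. Over the 28 core genes, the medians above the young male mean were 0.0975 to 0.589 in old females. They were 1.60 in old male 18 and 0.00 to 0.61 in the other old males, a range that overlapped that of the old females. In young muscle no member differed by sex (0.11% of all genes called, 0 members at an unadjusted p under 0.05).

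In fasted liver, sex differences depended on the scaling. With TMM scaling 5 members were higher in young females (13.9% of all genes) and none lower (12.5%), and in old females 4 were higher (14.3%) and 1 lower (18.3%). None of these counts out of 42 exceeded the share of all genes. psmb7, the beta subunit with the trypsin-like site, ran from 31.4 to 44.9 CPM in young females and from 21.7 to 27.9 CPM in young males (0.47 ± 0.0741, adjusted p 1.73e-05). In old fish it ran from 30.7 to 39.2 CPM in females and from 22.5 to 25.8 CPM in males (0.49 ± 0.077, adjusted p 1.16e-05), without overlap at either age. psmd9, an assembly chaperone of the 19S base, ran from 10.9 to 20.5 CPM in young females and from 6.84 to 9.69 CPM in young males, without overlap (0.72 ± 0.116, adjusted p 2.15e-05). In old fish it ran from 10.3 to 15.1 CPM in females and from 7.89 to 13.1 CPM in males, with overlap (0.46 ± 0.12, adjusted p 0.00372).

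Scaled by total counts, all 42 members were below 0 at both ages, and the median of all genes moved to -0.79 in young and -0.985 in old fish. The values of psmb7 and psmd9 reversed to below 0. psme3 (0.74 and 0.72), psma5 in young fish (0.74) and psma1 in old fish (0.38) were called with TMM and reversed in the same way. Relative to the medians of all genes, each of these genes was above the typical gene under both scalings in the comparisons where it was called. psmb8 was lower in old females than in old males (-2.28 ± 0.699, adjusted p 0.0132), or -0.74 without male 26 (adjusted p 0.428). Of 13 leukocyte markers 11 were lower in old females too, with a median log2 fold change of -3.00 over the 13. The summed level, in which the most abundant markers weigh most, had a median of 110 CPM (53.7 to 142) in old females. In old males it was 101 CPM (28.6 to 495). The part of these markers in the result was not tested. Of the pathway list, rad23b was higher (0.27) and ubqln4 (-1.07), adrm1 (-0.49) and txnl1 (-0.36) lower in young females. In old females nfe2l2 (0.82), a ubb gene (0.45), nploc4 (0.41) and rad23b (0.36) were higher and ubqln4 (-0.70) and adrm1 (-0.36) lower, all with TMM scaling.

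Muscle and liver of the same fasted fish differed in most members, as in most genes. Of 42 members 31 were higher in muscle (42% of all genes) and 5 lower (44%), with a median of 0.70 beside -0.05 for all genes. Higher in muscle were all 6 ATPases, 8 of 9 non-ATPases, 6 of 7 alpha and 5 of 6 beta genes, while 3 of 4 activators, psmb8 and the chaperone psmd5 were lower. Scaled by total counts, 13 members lay below 0 in place of 5 with TMM, and the median was 0.38 beside -0.37 for all genes. The tissues were prepared with different kits and sequenced on different instruments, so tissue and preparation cannot be told apart.

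psma6 of the alpha ring ran from 10.3 to 21.3 CPM in liver (median 13.3) and from 34.0 to 63.2 CPM in muscle (median 40.5), and was higher in muscle in 27 of 27 fish (1.63 ± 0.065, adjusted p 3.3e-26). psmb5 ran from 2.71 to 5.19 CPM in liver (median 4.34) and from 7.58 to 23.5 CPM in muscle (median 11.2), again in 27 of 27 fish (1.47 ± 0.0685, adjusted p 1.16e-23). Neither gene overlapped between the tissues. The largest change of all members was that of psmd10 (gankyrin), a chaperone of the 19S base (1.98 ± 0.114, adjusted p 2.93e-20). Within their own roles the largest were those of the inhibitor psmf1 (1.49 ± 0.0764, adjusted p 4.25e-22), the ATPase psmc4 (1.27 ± 0.145, adjusted p 9.15e-11) and psmd12 of the lid (1.26 ± 0.0677, adjusted p 2.43e-21).

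psme2 ran from 3.64 to 44.0 CPM in liver (median 8.62) and from 0.97 to 45.7 CPM in muscle (median 1.72), and was lower in muscle in 26 of 27 fish (-1.64 ± 0.291, adjusted p 2.03e-06). Its partner in the PA28 ring, psme1, was higher in muscle in 27 of 27 fish (1.27). psme3 was lower in muscle in 25 of 27 fish, with ranges of 6.52 to 24.3 CPM in liver and 3.70 to 13.3 CPM in muscle (-0.86 ± 0.12, adjusted p 1.35e-08). psme4 (-0.80) and psmb8 (-0.86 ± 0.329, adjusted p 0.0152) were lower in muscle in 24 of 27 fish. Of the RefSeq-named genes, psmb6 (1.38) and psmd11b (1.03) were higher in muscle, and psmb12 (-3.94), psmb13a (-2.98) and psma6l (-2.25) lower. Of the pathway list 18 of 24 genes were higher in muscle (42% of all genes) and 5 lower (44%). The higher ones included the muscle ligases trim63b (10.6) and fbxo32 (7.88), rad23b (1.97), nfe2l1 (1.86), txnl1 (1.54), zfand5a (1.30), usp14 (1.01), adrm1 (0.85), ufd1l (0.73), 2 ubb genes (0.67 and 0.24), ddi2 (0.53), ubqln4 (0.41), uchl5 (0.35), akirin1 (0.34), uba1 (0.22) and pomp (0.18). The lower ones were nfe2l2 (-2.56), akirin2 (-0.57), vcp (-0.33), nploc4 (-0.32) and ngly1 (-0.29). The antigen presentation list had none higher and 8 of 12 lower.

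**Figure D5:**
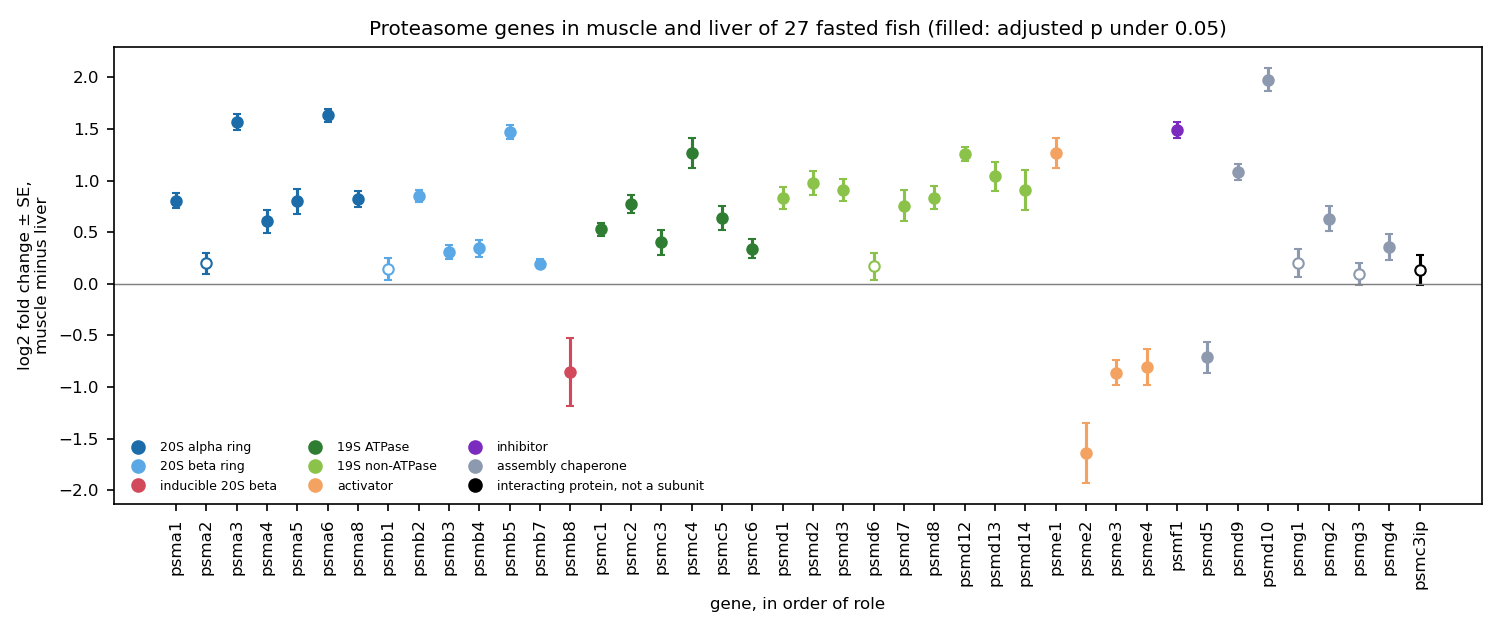
Log2 fold change, muscle minus liver, of each gene over 27 fasted fish, with its SE as a bar, coloured by role and filled where the adjusted p was under 0.05. With TMM scaling, 20S and 19S genes lay above 0, from 0.14 to 1.63, while psmb8, psme2, psme3, psme4 and psmd5 lay below 0.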

How the data were processed

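Liver and muscle RNA-seq libraries (68 from 41 fish) were analysed from the gene counts that the authors deposited, 1 table per tissue. Per the submitters' processing notes, FastQC 0.11.8, Trim Galore 0.6.4, cutadapt 3.4 and STAR 2.7.6a were used. The counting tool, strand setting, genome build and annotation are not given in the sources used here, so near-identical copies and overlapping genes may share reads. Per the labels' protocols, kits and instruments differed between tissues.

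Counts were filtered with filterByExpr (minimum count 10, minimum total 15), scaled by TMM and tested with the quasi-likelihood test of edgeR 4.0.16 in R 4.3.3, with 1 mean per group and Benjamini-Hochberg adjustment over all genes. Log2 CPM used a prior count of 2, and errors of fold changes are SE. Alternatives were RLE or total-count scaling, DESeq2 1.42.0, no filter, a fit to the compared groups alone, leaving out each library, and a fish block between tissues (limma 3.58.1 was installed with edgeR). The 3 differences in age effects were added after the data were seen. The members and the lists were chosen with earlier results of these data known.

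In each comparison and role, the called member with the largest change was named, with library values for the 2 called members of smallest adjusted p in each direction, and called pathway genes were named, except 1 that is not reported here. Liver and muscle came from the same fish, per the series' design text. Deviations of the same fish from the group means correlated between tissues with r from -0.013 to 0.565 (median 0.134, 27 fish). On simulated counts the test recovered 14.9% of 2-fold and 69.7% of 4-fold changes for fasting in old WT males (17406 genes) and 80.6% and 100% for age in muscle of males (16380 genes). Only 67 genes were changed 2-fold and 66 4-fold, far fewer than were called in the data. The adjustment of p-values depends on that share, so these recoveries do not carry over to the data. RefSeq names came from assembly NfurGRZ-RIMD1, used for names and gene order alone.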

Additional observations from a re-analysis of the deposited data

Results flagged for a closer look

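In 192 sets of 4 libraries, 22 values (11.5%) lay far from the others of their set by Dixon's criterion. Each set held 1 gene, or the mean core level, in 1 group. Chance gives such a value in about 1 set in 20 if the values are normally distributed. The CPM of single genes were not log-transformed here, and the sets shared libraries. The share of 11.5% therefore cannot be judged against that rate. Only groups of 4 fish were tested, and all of them were Het. No WT fish could be flagged, so the flags do not compare the genotypes. In fed livers of old Het males, fish 13 had 18.18 CPM of psmb8, 33.69 CPM of psme1 and 79.54 CPM of psme2, and fish 14 had 4.959 CPM of psmc3ip and 19.67 CPM of psme3. In fed livers of young Het males, fish 54 had 11.01 CPM of psme1 and fish 52 had 20.19 CPM of psme3.

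Among fasted livers of young Het females, fish 37 stood high with 14.72 CPM of psma3, 19.37 CPM of psmc4, 28.62 CPM of psmd12, 15.45 CPM of psmd13, 17.55 CPM of psmd14 and a mean core level of 4.615 log2 CPM. In the same group fish 34 stood apart with 3.9 CPM of psmb5, 327.3 CPM of psme4 and 1.905 CPM of psmg4. Among young Het males, fish 41 had 11.01 CPM of psme2 in the fasted liver.

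In muscle, old Het female 21 had 15.59 CPM of psmb1 and young Het female 37 had 0.5603 CPM of psmb8. Young Het male 38 had 17.29 CPM of psma3, 16.89 CPM of psmd14 and a mean core level of 4.413 log2 CPM.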

How the results depend on the processing

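Counts here are of called members. When only the groups compared were fitted, fasting called 2 lower and 0 higher in old WT males and 10 lower in young WT males. Age then called 2 higher in muscle of males, 1 higher in livers of fasted males, and 33 higher and 1 lower in fed WT males. Genotype in fed young males called 6 higher, and sex in old livers 2 higher and 0 lower. With total counts, fasting called 11 lower in old Het, 4 in young Het and 0 in young WT males, age in muscle called 39 higher in males and 1 in females, and sex in liver called 0 higher and 21 lower in young and 0 higher and 36 lower in old fish. There the log2 fold changes reversed to -0.5931 (psma1), -0.4424 (psmb7), -0.4624 (psmd9) and -0.2181 (psme3) in old fish and to -0.05007 (psma5), -0.316 (psmb7), -0.07665 (psmd9) and -0.04627 (psme3) in young fish. DESeq2 called 19 higher for age in fed WT males, 1 higher for fasting in young WT males, 2 higher for genotype in fed young males, 1 lower for the old minus young fasting response and 2 lower for sex in old muscle. With no filter the counts were 7 higher for age in fed WT males and 1 lower for fasting in young WT males. The cause of these shifts was not tested.

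Leaving out 1 library gave, for fasting, 9 to 33 lower in old WT, 15 to 21 lower and 1 to 2 higher in old Het, 6 to 16 lower in young Het, and 0 to 2 lower and 0 to 1 higher in young WT males. Age gave 5 to 10 higher in fed WT males, 0 to 4 higher in fasted males, 0 to 1 higher and 0 to 1 lower in fasted females, and 8 to 34 higher in muscle of males. Sex gave 3 to 9 higher and 0 to 1 lower in young livers, 2 to 12 higher and 0 to 1 lower in old livers, and 0 to 16 lower in old muscle. Genotype in fed old males gave 0 to 4 lower, the Het minus WT fasting response in old males 0 to 3 higher, and the Het minus WT age effect 0 to 2 lower. With the fish as replicate block, 31 members were higher and 5 lower in muscle, as without it.

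Groups of 3 or 4 fish limit what can be called. In simulated counts 0% of 1.5-fold changes were recovered for fasting in old WT males. Only 67 of 17406 genes were given that change, and far more genes were called in the data. The adjustment of p-values is stricter when few genes change, so this share does not carry over to the data. Separate rearing of the fish is not stated, so p-values measure only the spread between these fish.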
